A study of Mus musculus with 6 samples.

Results

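A set of 40 proliferation and cell cycle genes was followed in whole mouse colon, out of 30330 gene symbols in the deposited table of transcript abundance. The genes were chosen by name, and the abundance of every transcript of a gene was summed under its symbol. Of the 40 genes, 15 act in or just before S phase, 18 act in G2 or mitosis, and 7 (Ccnd1, Cdk2, Cdk4, Cdkn1a, Cdkn1b, Ccna2 and Gmnn) were placed in neither list. The samples were colons of 12-week-old male mice, 3 of them wild type and 3 carrying the TNFR1-/- genotype, which removes tumour necrosis factor receptor 1, the product of Tnfrsf1a. The strain label was C57Bl/6J for all 6 animals, and no treatment was named. How the knockout allele was made, and whether the groups were littermates, was not stated in the labels. Abundance was given in TPM, a share of the library's transcripts that is corrected for transcript length, so that levels of different genes can be set side by side.

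Cells divide by passing through G1, S, G2 and mitosis. Cyclin D with CDK4, and then cyclin E with CDK2, release E2F factors from the retinoblastoma proteins, and E2F switches on the genes for DNA replication. Cyclin A and cyclin B with CDK1 drive the later steps, Aurora and Polo kinases build the spindle, and the anaphase-promoting complex ends mitosis by destroying cyclin B and securin. In the colon, most dividing cells sit in the lower part of the crypts, where stem cells and their transit-amplifying daughters renew the epithelium.

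The knockout was visible in single transcripts of the targeted gene and less so in its total. Tnfrsf1a as a gene total measured 71.2, 44.1 and 63.0 TPM in wild type and 49.2, 36.5 and 46.9 TPM in knockout, with overlap. Its leading transcript, ENSMUST00000032491, measured 67.6, 39.9 and 59.1 TPM in wild-type replicates 1 to 3 and 23.5, 20.4 and 25.6 TPM in the knockout replicates, and ENSMUST00000125880 measured 0.89 to 1.20 TPM in the wild-type colons and 12.4 to 18.01 TPM in knockout. Wild-type replicate 2 stood apart, because transcripts without a gene held 27.4% of its TPM, against 1.86 to 7.23% in the other libraries, which lowers every other value in it. Fold changes are therefore given as deposited, and also after scaling by the median of ratios, which divides each library by its median ratio to the average library (factors 0.786 to 1.13). With a limma fit on log2(TPM + 0.5) and an adjusted p of 0.05 as threshold, 13 of 14248 genes were higher in knockout (0.0912%) and 25 were lower (0.175%). After scaling these counts were 5 (0.0351%) and 1 (0.00702%).

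No cell cycle gene passed the test. All 40 were measured above the filter of a mean of 1 TPM, and 0 of 40 were called in either direction, as deposited or after scaling. At an unadjusted p under 0.05, where 3.69% of all genes lay as deposited and 11.3% after scaling, the members counted 0 and 5. Those 5 were Mki67, Mcm3, Mcm7, Cdc6 and Cdkn1b, all with lower values in knockout. Fitted log2 fold changes (knockout against wild type) ran from -0.34 for Cdc6 to 0.39 for Ccne2, with standard errors of 0.20 to 0.27 and 95% intervals that stayed between -0.88 and 0.92. After scaling the standard errors were 0.06 to 0.23 and the intervals stayed between -0.70 and 0.76. These intervals still allow changes of moderate size for single genes, so a missed threshold does not show that a gene was the same in both genotypes. Genes of the S phase list had mostly lower values in knockout and genes of the G2/M list were centred near 0, as described below. RNA of a whole organ cannot tell fewer dividing cells from less RNA per dividing cell.

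The promoters of the 2 phase lists differed in their letters, and 6 of them are shown because they carry the sequence elements by which S phase and G2/M genes are known to be timed. E2F factors bind a family of related sites, searched here as TTTGGCGC, TTTCCCGC or TTTCGCGC. Many mitotic genes carry instead a cell cycle homology region (CHR), TTTGAA, bound by the DREAM and MMB complexes, together with CCAAT boxes bound by NF-Y. Each line gives 190 bases that end at the base before the start annotated by RefSeq, which can differ from the gene boundaries given further on, 5′ to 3′ on the gene's own strand, on GRCm38.p6, with every match on either strand in capitals, so that ATTGG and TTCAAA are the last 2 elements read from the other strand.
Mcm6: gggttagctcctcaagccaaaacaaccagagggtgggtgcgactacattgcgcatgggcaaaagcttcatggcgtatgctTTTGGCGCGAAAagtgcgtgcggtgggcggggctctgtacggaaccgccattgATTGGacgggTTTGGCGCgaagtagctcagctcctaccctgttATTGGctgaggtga
Mcm5: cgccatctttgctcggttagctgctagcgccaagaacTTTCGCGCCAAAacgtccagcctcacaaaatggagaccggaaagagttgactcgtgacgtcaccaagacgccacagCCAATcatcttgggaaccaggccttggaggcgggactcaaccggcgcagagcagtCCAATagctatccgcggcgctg
Ube2c: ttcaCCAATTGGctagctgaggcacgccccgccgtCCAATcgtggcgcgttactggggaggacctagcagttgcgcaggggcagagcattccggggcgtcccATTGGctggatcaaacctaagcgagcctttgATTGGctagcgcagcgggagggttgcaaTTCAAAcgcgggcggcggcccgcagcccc
Cdc20: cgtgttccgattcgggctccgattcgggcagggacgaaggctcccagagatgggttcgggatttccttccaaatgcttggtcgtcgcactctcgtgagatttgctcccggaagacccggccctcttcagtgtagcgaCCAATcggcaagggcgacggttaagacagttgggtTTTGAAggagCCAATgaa
Cdk1: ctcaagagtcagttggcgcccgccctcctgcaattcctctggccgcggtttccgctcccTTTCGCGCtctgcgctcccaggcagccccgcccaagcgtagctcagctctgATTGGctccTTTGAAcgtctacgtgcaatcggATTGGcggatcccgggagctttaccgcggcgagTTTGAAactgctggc
Mki67: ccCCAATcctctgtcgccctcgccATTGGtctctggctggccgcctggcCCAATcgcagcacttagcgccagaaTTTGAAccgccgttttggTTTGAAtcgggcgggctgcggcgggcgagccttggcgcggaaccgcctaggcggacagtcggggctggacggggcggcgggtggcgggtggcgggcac

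Mcm6 (chr1:128359706-128359895, minus strand) and Mcm5 (chr8:75109319-75109508, plus strand) encode subunits of the replicative helicase, and both held overlapping E2F matches on opposite strands, beside CCAAT. Ube2c (chr2:164769739-164769928, plus strand) and Cdc20 (chr4:118437344-118437533, minus strand) encode parts of the anaphase-promoting machinery and held a CHR match near the start together with CCAAT. Cdk1 (chr10:69352913-69353102, minus strand), the mitotic kinase, held 2 CHR matches and 1 E2F match in the bases shown. Mki67 (chr7:135716380-135716569, minus strand), the gene of the Ki-67 antigen, held 2 CHR and 3 CCAAT matches. These 6 were picked after the values were known, as examples of each pattern.

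A promoter window of 300 bases, 250 before the start and 50 after it, was found for 33 of the 40 genes and for 27025 genes in all. An E2F match stood in 6 of 13 S phase members (46.2%), namely Cdc6, Cdt1, Mcm3, Mcm5, Mcm6 and Mcm7, in 1 of 16 G2/M members (6.2%), which was Cdk1, and in 2.1% of all genes. A CHR match stood in 12 of 16 G2/M members (75.0%), in 1 of 13 S phase members (7.7%), which was Mcm2, and in 20.2% of all genes. CCAAT was found in 93.8% of the G2/M members, 61.5% of the S phase members and 41.1% of all genes. All 12 G2/M members with CHR also had CCAAT, a pair present in 9.0% of all genes. A match describes the letters of the window and does not show that a factor was bound in these colons. The 7 genes without a window were Tpx2, Ccne2, Mcm4, Ccnd1, Aurkb, Ccna2 and Gmnn.

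The level of the 40 genes covered a wide range. Cdkn1a, which encodes the CDK inhibitor p21, was the most abundant at a mean of 145 TPM over the 6 libraries. It was followed by Pcna, the sliding clamp of DNA polymerase, at 123 TPM, Cdk4 at 88.9 TPM and Cdkn1b at 63.2 TPM. At the other end, Cenpf, Cdc6, Cenpe, E2f1 and Bub1 averaged 3.06, 3.06, 3.11, 3.25 and 3.75 TPM. The coefficient of variation over the 6 libraries was smallest for Tyms (4.87%) and largest for Ccne2 (29.9%). After scaling it was smallest for Cdk4 (4.19%), Ccnd1 (5.62%) and Plk1 (6.38%). As deposited, Cdk4 and Ccnd1 were lowest in wild-type replicate 2.

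**Figure D1:**
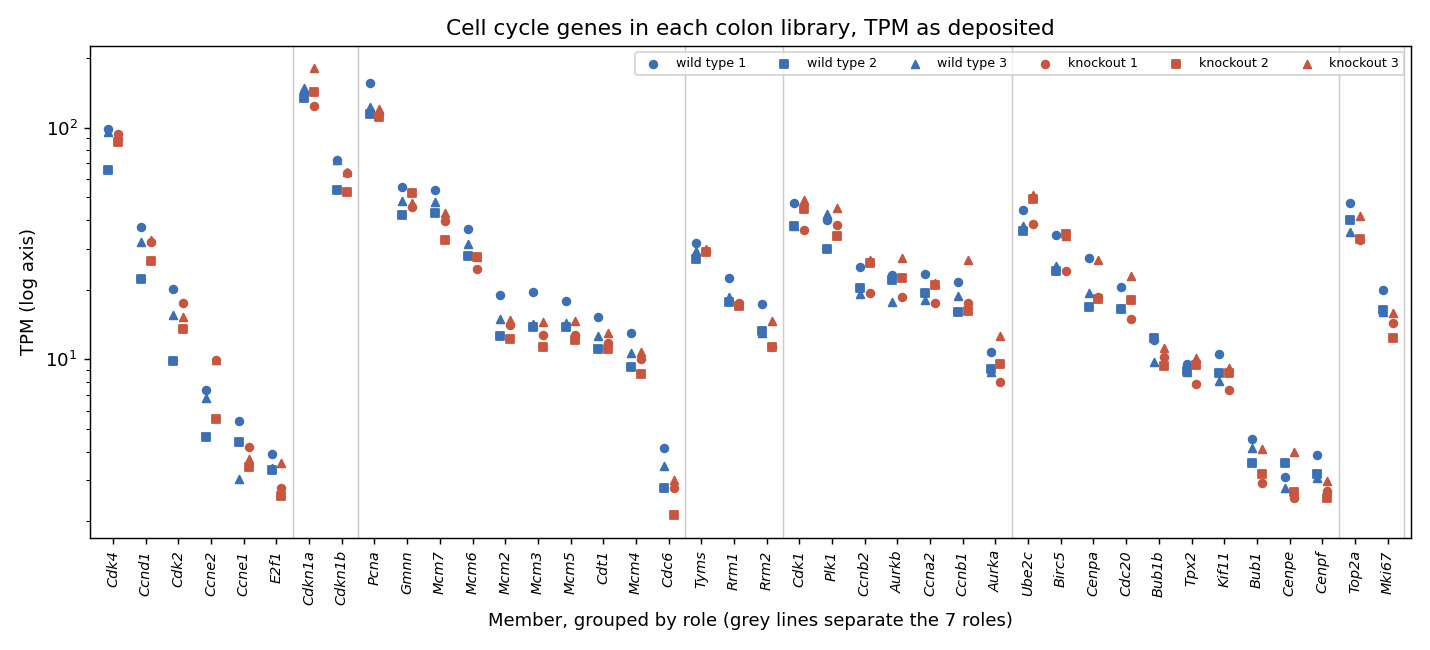
TPM as deposited (log axis) of each of the 40 genes in each library, grouped by role, with wild type in blue and knockout in red and 1 marker shape per replicate number. Levels run from about those of Cenpf (3.06 TPM on average) to those of Cdkn1a (145 TPM), and the colours overlap for most genes.

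Among the genes of the G1 to S step, 4 of 6 had positive and 2 negative fold changes, with a median of 0.05 (0.02 after scaling, and -0.07 with 1 positive when TPM were rescaled over transcripts with a gene, a scaling that moved the median of all genes to -0.10). Ccnd1 (ENSMUSG00000070348, chr7:144929931-144939925), the D-type cyclin that responds to Wnt and growth factor signals, measured 37.2, 22.1 and 32.0 TPM in wild-type replicates 1 to 3 and 32.2, 26.6 and 32.9 TPM in the knockouts. The groups overlapped, and wild-type replicates 1 and 2 were the highest and lowest of all 6. Its log2 fold change was 0.03 (SE 0.22, limma adjusted p = 0.9999) and 0.00 after scaling (SE 0.08, 95% interval -0.19 to 0.19, adjusted p = 0.996). Ccne2 (ENSMUSG00000028212, chr4:11191351-11204779), 1 of the E-type cyclins that open S phase, measured 7.40, 4.62 and 6.79 TPM in the wild-type colons and 9.90, 5.54 and 9.94 TPM in knockout. Knockout replicates 1 and 3 lay above all wild-type libraries and knockout replicate 2 lay among them. At 0.39 on the log2 scale (SE 0.26, limma adjusted p = 0.9999), it had the highest fold change of the 40, and 0.36 after scaling (SE 0.17, adjusted p = 0.475). With 1 library left out this value ran from 0.20 (without wild-type replicate 2) to 0.65 (without knockout replicate 2) as deposited. The leading coding transcript, ENSMUST00000108324, averaged 3.05 TPM in the wild-type colons and 3.40 TPM in knockout (log2 fold change 0.14). Other coding entries were lower, at 0.81 and 0.68 TPM (ENSMUST00000029866) and 0.39 and 0.06 TPM (ENSMUST00000170901). ENSMUST00000147725, annotated as a processed transcript, was 0.88 to 1.17 TPM in wild type and 2.06, 0.90 and 4.05 TPM in knockout. Ccne2 as a gene total thus includes entries not annotated as coding. Its relative Ccne1 had a lower mean in knockout, at 4.28 ± 1.20 TPM in the wild-type colons and 3.78 ± 0.38 TPM in knockout (SD, n = 3), and the ratio of Ccne2 to Ccne1 was 1.37, 1.05 and 2.24 in wild type and 2.36, 1.61 and 2.68 in knockout, with overlap. E2f1 (ENSMUSG00000027490, chr2:154559407-154569892), an activating E2F, measured 3.89, 3.32 and 3.39 TPM in the wild-type colons and 2.78, 2.58 and 3.56 TPM in knockout. Knockout replicates 1 and 2 lay below all wild-type libraries, and knockout replicate 3 lay among them. The log2 fold change of E2f1 was -0.22 (SE 0.26, limma adjusted p = 0.9999), or -0.25 after scaling (SE 0.15, adjusted p = 0.543). Cdk4 and Cdk2, the partners of cyclins D and E, had scaled fold changes of 0.07 (SE 0.06) and 0.05 (SE 0.13), and the interval for Cdk4 ran from -0.08 to 0.22.

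Of the CDK inhibitors, Cdkn1b (ENSMUSG00000003031, chr6:134920401-134925513), which encodes p27, measured 72.1, 53.6 and 72.6 TPM in the wild-type colons and 63.7, 52.7 and 64.5 TPM in knockout. The groups overlapped as deposited, with wild-type replicate 2 next to the lowest library. After scaling the values were 63.7, 68.3 and 66.1 against 57.4 to 60.5, without overlap, and the log2 fold change was -0.15 (SE 0.06, limma adjusted p = 0.436, against -0.12, SE 0.21, adjusted p = 0.9999, as deposited). Cdkn1a measured 141 ± 6.92 TPM in the wild-type colons and 149 ± 28.8 TPM in knockout (SD, n = 3), with a log2 fold change of 0.06 (SE 0.20). The ratio of Cdkn1a to Cdkn1b was 1.96, 2.50 and 2.04 in wild type and 1.94, 2.69 and 2.79 in knockout, so knockout replicate 1 lay below every wild-type library and the other knockouts above them.

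Nearly all replication genes had lower means in knockout. Of 10 genes of licensing and the clamp, 9 had negative fold changes as deposited and 10 after scaling, with medians of -0.19 and -0.22. Mcm7 (ENSMUSG00000029730, chr5:138164583-138172422), a subunit of the MCM helicase that is loaded onto origins, measured 53.6, 42.95 and 47.9 TPM in the wild-type colons and 39.4, 32.6 and 42.96 TPM in knockout. As deposited the groups touched, with knockout replicate 3 just above wild-type replicate 2, and after scaling they did not (47.4, 54.7 and 43.6 against 37.1, 35.5 and 40.3). The log2 fold change of Mcm7 was -0.33 (SE 0.21, limma adjusted p = 0.9999), or -0.36 after scaling (SE 0.10, 95% interval -0.59 to -0.13, adjusted p = 0.349), and 0.349 was the smallest adjusted p of any member in that fit. Mcm3 (ENSMUSG00000041859, chr1:20802968-20820312) measured 19.5, 13.8 and 14.2 TPM in the wild-type colons and 12.7, 11.3 and 14.5 TPM in knockout. Only knockout replicate 3 reached into the wild-type range, and wild-type replicate 1 was the highest library. The fitted log2 fold change was -0.28 (SE 0.22, limma adjusted p = 0.9999), or -0.31 after scaling (SE 0.13, adjusted p = 0.438). Pcna (ENSMUSG00000027342, chr2:132249162-132253314) measured 156, 114 and 123 TPM in the wild-type colons and 114, 111 and 120 TPM in knockout, with overlap and with wild-type replicate 1 well above the rest. Its log2 fold change was -0.17 (SE 0.20, limma adjusted p = 0.9999), or -0.20 after scaling (SE 0.11, adjusted p = 0.509), and as deposited it was -0.04 without wild-type replicate 1 and -0.27 without wild-type replicate 2.

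The 6 MCM subunits form 1 ring and were all lower on average in knockout, by log2 fold changes of -0.15 (Mcm4) to -0.33 (Mcm7) as deposited and of -0.18 to -0.36 after scaling. None passed the test. The subunits were not equal in level, since Mcm7 averaged 43.2 TPM, Mcm6 29.3 TPM and Mcm4 10.4 TPM. The ratio of Mcm7 to Mcm4, which no library scaling can move, was 4.14, 4.62 and 4.49 in wild type and 3.94, 3.78 and 3.99 in knockout. These were the subunits with the most and the least negative fold change, so the choice of the pair fixes the direction of the ratio. Cdc6, which loads the ring onto origins, had the lowest fold change of the 40 genes at -0.34 (SE 0.27) and averaged 3.48 ± 0.68 TPM in the wild-type colons and 2.64 ± 0.46 TPM in knockout (SD, n = 3). Cdt1, the other loading factor, measured 13.0 ± 2.11 and 11.9 ± 0.97 TPM, and Gmnn, whose product geminin blocks Cdt1, measured 48.5 ± 6.75 and 48.4 ± 3.51 TPM. The ratio of Gmnn to Cdt1 was 3.63, 3.77 and 3.84 in wild type and 3.89, 4.73 and 3.64 in knockout, with overlap.

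**Figure D2:**
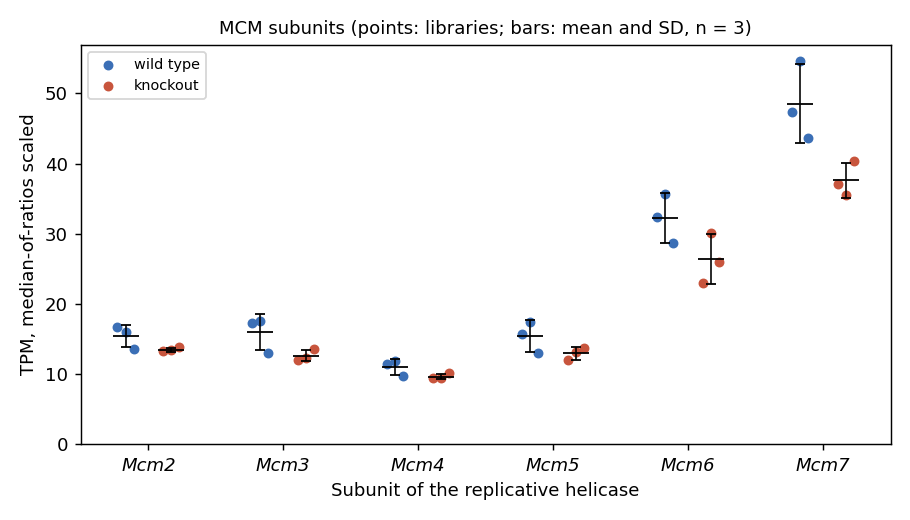
Scaled TPM of the 6 MCM helicase subunits, with 1 point per library and bars for the mean and SD of 3 wild-type (blue) and 3 knockout (red) libraries. Values are gene totals. Every knockout mean lies below its wild-type mean, and the points of the groups are separate for Mcm7.

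Of the 3 genes of nucleotide supply, 2 were negative as deposited (median -0.17) and 3 after scaling (-0.20) and when rescaled over transcripts with a gene (-0.29). Rrm2 (ENSMUSG00000020649, chr12:24708241-24714146), the regulated subunit of ribonucleotide reductase, measured 17.4, 13.3 and 13.1 TPM in the wild-type colons and 11.3, 11.3 and 14.7 TPM in knockout. Knockout replicate 3 lay inside the wild-type range and the other knockouts below it, and the log2 fold change was -0.22 (SE 0.22, limma adjusted p = 0.9999), or -0.25 after scaling (SE 0.15, adjusted p = 0.549). The large subunit, Rrm1, was 19.5 ± 2.48 TPM in the wild-type colons and 17.2 ± 0.29 TPM in knockout (SD, n = 3). Tyms, thymidylate synthase, showed almost equal means of 29.4 ± 2.23 and 29.4 ± 0.39 TPM, with a 95% interval of -0.41 to 0.42 for its log2 fold change.

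The mitotic cyclins and kinases had mostly positive fold changes, 6 of 7, with a median of 0.07 (0.04 after scaling). Rescaled over transcripts with a gene, the median was -0.06 and 1 was positive, beside the all-gene median of -0.10. Ccnb2 (ENSMUSG00000032218, chr9:70407692-70421547), a B-type cyclin, measured 24.9, 20.4 and 19.1 TPM in the wild-type colons and 19.3, 25.9 and 26.8 TPM in knockout. Knockout replicates 2 and 3 were above all wild-type libraries and knockout replicate 1 was near the lowest. The fitted log2 fold change was 0.15 (SE 0.22, limma adjusted p = 0.9999), or 0.12 after scaling (SE 0.19, adjusted p = 0.818). Aurkb (ENSMUSG00000020897, chr11:69045647-69051664), the kinase of the chromosomal passenger complex, measured 23.0, 21.9 and 17.6 TPM in the wild-type colons and 18.7, 22.3 and 27.4 TPM in knockout, again with knockout replicate 1 low and replicate 3 highest. Its log2 fold change was 0.12 (SE 0.22, limma adjusted p = 0.9999), or 0.09 after scaling (SE 0.22, adjusted p = 0.892), and it was -0.02 without knockout replicate 3. Cdk1, Plk1, Aurka and Ccnb1 had fold changes of 0.05 to 0.08 as deposited, and Ccna2, the cyclin of both S phase and G2, had -0.02. Ccnb1 as a gene total was 17.5 and 16.2 TPM in knockout replicates 1 and 2 and 26.7 TPM in replicate 3, so its higher mean rests on that library. Its leading coding transcript, ENSMUST00000072119, measured 12.4, 11.1 and 11.1 TPM in wild type and 9.91, 13.2 and 15.6 TPM in knockout.

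Genes of the spindle, the centromere and anaphase lay on both sides of 0, with 4 of 10 positive as deposited and 3 after scaling and medians of -0.03 and -0.06. Ube2c (ENSMUSG00000001403, chr2:164769898-164778822), the ubiquitin-conjugating enzyme of the anaphase-promoting complex, measured 43.9, 35.6 and 37.8 TPM in the wild-type colons and 38.4, 49.0 and 51.4 TPM in knockout. Knockout replicates 2 and 3 were above all wild-type libraries and replicate 1 was among them. The fitted log2 fold change was 0.23 (SE 0.21, limma adjusted p = 0.9999), or 0.20 after scaling (SE 0.16, adjusted p = 0.629). Cenpf (ENSMUSG00000026605, chr1:189640606-189688086), a kinetochore protein, measured 3.87, 3.19 and 3.08 TPM in the wild-type colons and 2.69, 2.52 and 2.98 TPM in knockout. The groups did not overlap, as deposited or after scaling (3.42, 4.07 and 2.801 against 2.54, 2.75 and 2.795, a gap far smaller than the spread within wild type). Its log2 fold change was -0.26 (SE 0.26, limma adjusted p = 0.9999), or -0.29 after scaling (SE 0.15, adjusted p = 0.497). The leading coding transcript of Cenpf, ENSMUST00000171929, held 82.4% of the gene's TPM, and in it the groups overlapped. It measured 2.88, 2.26 and 2.50 TPM in wild type and 2.42, 2.13 and 2.93 TPM in knockout, a log2 fold change of -0.03. The lower total thus rests on minor transcripts, such as ENSMUST00000165663 (0.36 and 0.06 TPM on average) and ENSMUST00000165798 (0.39 and 0.14 TPM). Survivin (Birc5) and the anaphase activator Cdc20 had fold changes of 0.15 and 0.04, and the checkpoint kinases Bub1 and Bub1b had -0.24 and -0.14. Cenpa, Cenpe, Kif11 and Tpx2 lay between -0.10 and 0.02.

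The usual marker of dividing cells was lower on average. Mki67 (ENSMUSG00000031004, chr7:135689784-135716361) measured 19.9, 16.3 and 16.0 TPM in the wild-type colons and 14.4, 12.4 and 15.8 TPM in knockout. Every knockout library lay below every wild-type library, with knockout replicate 3 just under wild-type replicate 3. The log2 fold change was -0.28 (SE 0.22, 95% interval -0.73 to 0.16, limma adjusted p = 0.9999), or -0.31 after scaling (SE 0.13, adjusted p = 0.439), where knockout replicate 3 moved just above wild-type replicate 3. Top2a, the topoisomerase that untangles sister chromatids, was 40.8 ± 5.88 TPM in the wild-type colons and 35.7 ± 5.05 TPM in knockout (SD, n = 3), with a log2 fold change of -0.19.

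Counting over all 40 genes, every knockout library lay below every wild-type library for 4 as deposited, namely Mki67, Mcm6, Rrm1 and Cenpf, where 1.82% of all genes did so. After scaling there were 4 again, Mcm7, Cdc6, Cenpf and Cdkn1b, where 9.17% of all genes did so, and only Cenpf was in both. These are gene totals, and in the leading transcripts of Cenpf and Mcm7 the groups overlapped as deposited. For no member did every knockout library lie above every wild-type library, where 3.17% of all genes did so as deposited and 9.31% after scaling. The scaled share of members, 4 of 40, was near the share of all genes.

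**Figure D3:**
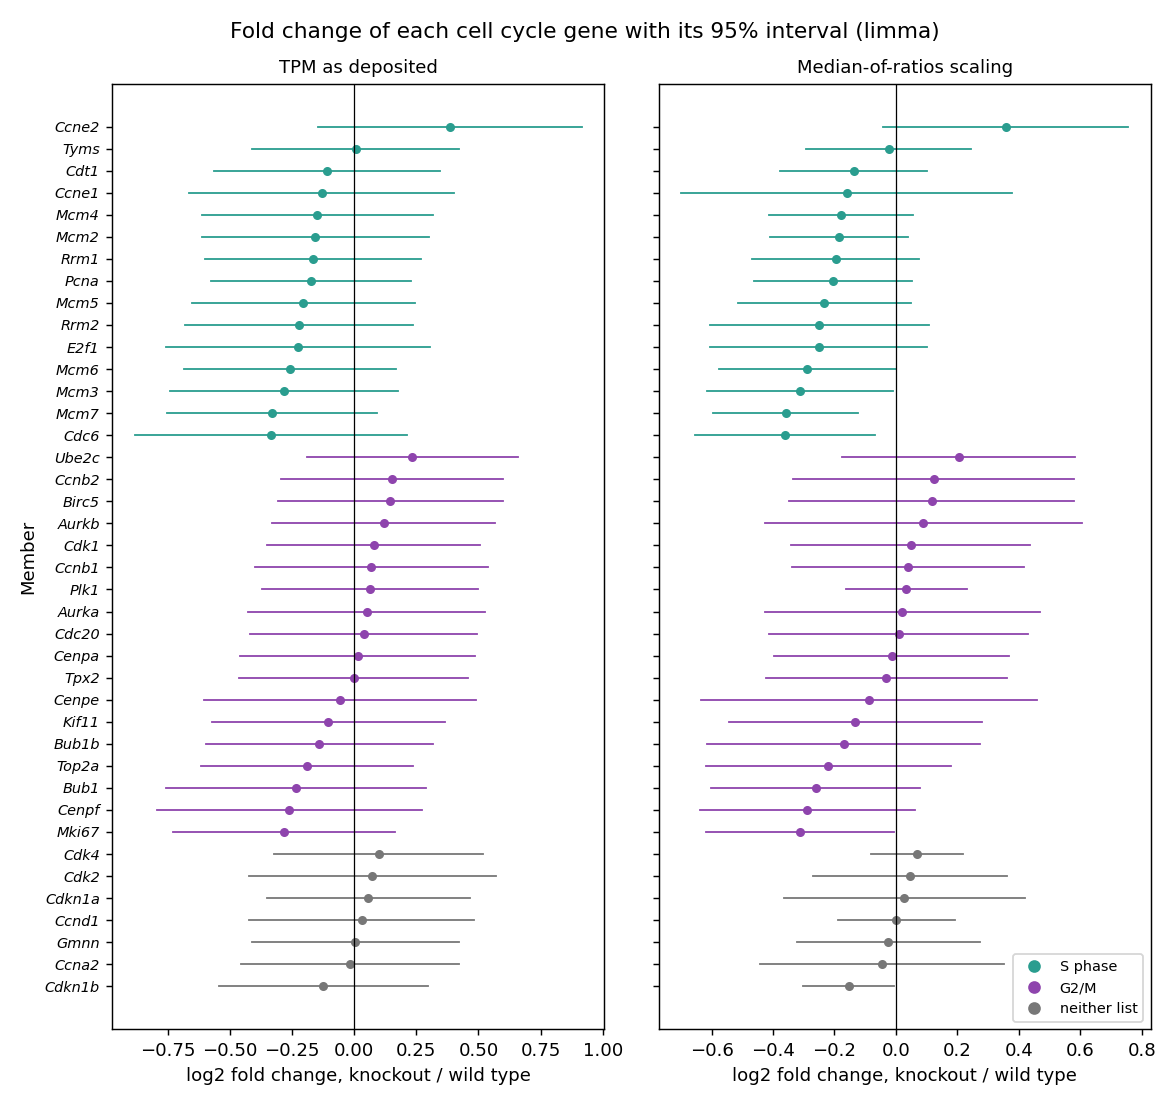
Log2 fold change (knockout against wild type) of each gene with its 95% interval from limma, for TPM as deposited (left) and after scaling (right), coloured by phase list. All intervals on the left cross 0, and after scaling those of 5 genes, Mcm3, Mcm7, Cdc6, Mki67 and Cdkn1b, lie below it.

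Set against each other, the S phase members had a median log2 fold change of -0.17 and the G2/M members of 0.03, beside 0.03 for all genes tested. Of the 15 S phase members 13 were negative, the exceptions being Ccne2 and Tyms, and of the 18 G2/M members 8 were negative. After scaling the medians were -0.20 and -0.003, beside -0.003 for all genes, and 14 of 15 and 9 of 18 were negative. Rescaled over transcripts with a gene, the medians were -0.30 and -0.10, beside -0.10 for all genes, with 14 of 15 and 15 of 18 negative. In each of these scalings the S phase median lay about 0.2 below that of all genes and the G2/M median at it. A scaling divides whole libraries and so shifts the fold changes of all genes by nearly the same amount. The equal offset in the 3 scalings is therefore 1 observation and not a repeated one. Over all genes tested 44.3% were negative as deposited and 50.6% after scaling. The S phase median stayed below 0 when any single library was left out, between -0.27 and -0.07 as deposited and between -0.34 and -0.14 after scaling. The G2/M median did not keep its sign. After scaling it ran from -0.13 without knockout replicate 3 to 0.11 without wild-type replicate 2. As deposited it ran from -0.13 without knockout replicate 3 to 0.13 without wild-type replicate 1, a setting in which all genes together had a median of 0.11. Genes of 1 phase are expressed in the same cells and are not independent of each other, so these counts carry no test.

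Single libraries weighed on these values. How often each library was highest or lowest over all genes was not counted, so the counts below cannot be read as particular to these lists. As deposited they also carry the scale of the library. Wild-type replicate 1 had the largest scaling factor (1.13), and knockout replicate 2 had a factor of 0.918. As deposited, wild-type replicate 1 was the highest library for 14 of 15 S phase members and knockout replicate 2 the lowest for 10. After scaling, wild-type replicate 2 was the highest for 12 of 15 and knockout replicate 1 the lowest for 8. Among the 18 G2/M members, knockout replicate 3 was the highest for 10 as deposited and knockout replicate 1 the lowest for 8, whereas after scaling wild-type replicate 2 was the highest for 9, knockout replicate 3 for 5, and knockout replicate 1 the lowest for 11. The summed level of the S phase members was 423, 319 and 346 TPM in the wild-type colons and 317, 298 and 340 TPM in knockout, and that of the G2/M members was 405, 325 and 331 TPM in the wild-type colons and 315, 354 and 421 TPM in knockout. Knockout replicates 2 and 3 therefore held more G2/M than S phase transcript, whereas the sums of the remaining libraries were near each other.

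Within a library the difference between the phases hardly depends on scaling. The median log2(TPM + 0.5) of the S phase members minus that of the G2/M members was -0.24, -0.29 and -0.26 in wild-type replicates 1 to 3 and -0.33, -0.57 and -0.73 in the knockout replicates. The wild-type libraries lay close together (-0.26 ± 0.03, SD, n = 3), the knockouts were spread (-0.55 ± 0.20), and the groups did not overlap. With means over the lists in place of medians the differences were 0.01, -0.12 and -0.002 in wild type and 0.02, -0.27 and -0.28 in knockout, and knockout replicate 1 was then the highest of all. The difference was thus lower than in every wild-type library in knockout replicates 2 and 3 by either summary and in replicate 1 by the median alone. In knockout replicate 3 the S phase median itself, 3.92, lay above those of wild-type replicates 2 and 3 (3.79 and 3.88), and its G2/M median, 4.66, was the highest of the 6 libraries. In knockout replicate 2 the S phase median, 3.57, was the lowest of the 6.

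**Figure D4:**
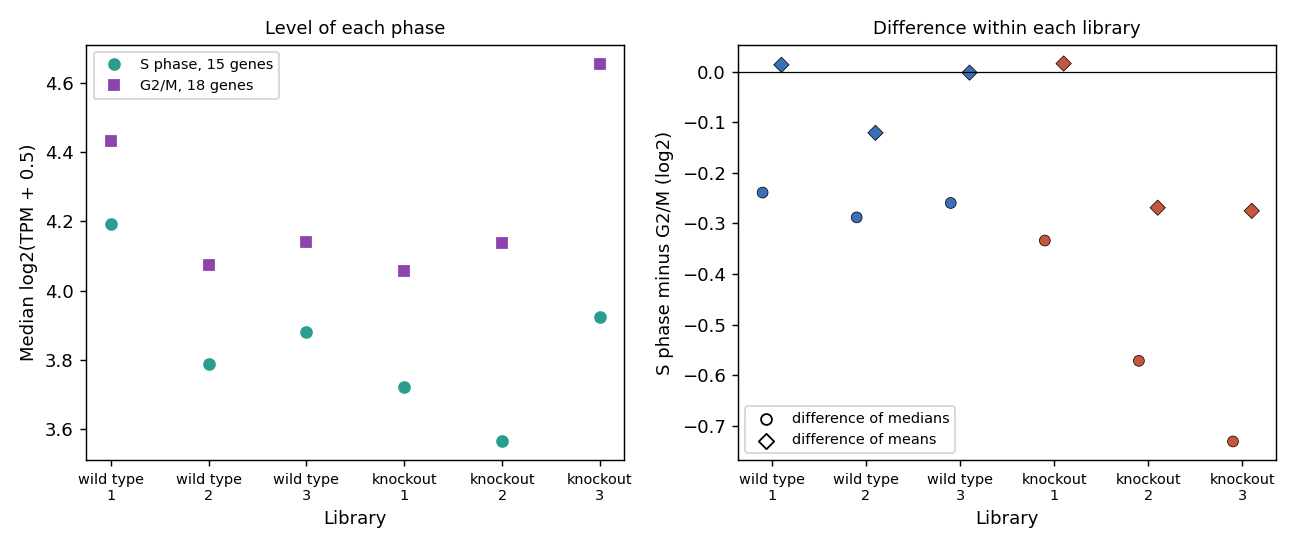
Left, median log2(TPM + 0.5) of the 15 S phase and 18 G2/M members in each library. Right, S phase minus G2/M within each library, by medians (circles) and by means (diamonds), in blue for wild type and red for knockout, with knockout replicates 2 and 3 lowest by both and knockout replicate 1 just above the wild types by means.

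Further genes of each phase, taken from textbook lists rather than from the members, gave a partly similar picture. These lists were chosen with earlier results of these data known. Their genes were measured in the same libraries as the members, so they are not an independent check. Of 53 other S phase genes, 47 were negative as deposited and after scaling, with medians of -0.15 and -0.18. None was called. At an unadjusted p under 0.05 there were 0 as deposited, where 3.69% of all genes lay, and 6 after scaling, which is the 11.3% found over all genes. Every knockout library lay below every wild-type library for 10 as deposited and 7 after scaling, where 1.82% and 9.17% of all genes did so. The 2 with the smallest p were Uhrf1, which keeps DNA methylation through replication, at 16.8 ± 2.80 TPM in the wild-type colons and 12.5 ± 2.10 TPM in knockout (SD, n = 3), and the origin-firing kinase Cdc7, at 2.91 ± 1.03 and 1.89 ± 0.93 TPM. Their log2 fold changes were -0.41 (SE 0.22) and -0.54 (SE 0.31), each with a limma adjusted p of 0.9999.

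Of 59 other G2/M genes, 38 were negative as deposited and 42 after scaling, with medians of -0.05 and -0.08, and again none was called. At an unadjusted p under 0.05 there were 2 as deposited and 3 after scaling, all lower in knockout, where 3.69% and 11.3% of all genes lay. The smallest p belonged to Ncapd2, a condensin subunit, at 32.2, 44.4 and 28.9 TPM in the wild-type colons and 18.9, 20.7 and 25.8 TPM in knockout, with no overlap, a log2 fold change of -0.67 (SE 0.22) and a limma adjusted p of 0.453. Next came Hjurp, the chaperone of the centromeric histone, at 91.9 ± 12.1 and 67.8 ± 19.5 TPM (SD, n = 3) and -0.47 (SE 0.22, limma adjusted p = 0.9999). In these other genes the difference of S phase and G2/M medians within a library was 0.25, 0.08 and 0.22 in wild type and 0.24, 0.12 and -0.01 in knockout, and the groups overlapped. By means it was 0.16, 0.01 and 0.12 in wild type and 0.11, -0.06 and -0.08 in knockout, so that knockout replicates 2 and 3 lay below every wild-type library, as they did by means in the members, and knockout replicate 1 lay among them.

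The transcription factors and checkpoint genes that control the cycle were centred at 0, with 22 of 40 tested positive as deposited and 20 after scaling and medians of 0.02 and -0.01 (-0.11, with 10 positive, when rescaled over transcripts with a gene). None was called, and 2 as deposited and 5 after scaling had an unadjusted p under 0.05, where 3.69% and 11.3% of all genes did. Of those 5, E2f7, Mybl2 and the checkpoint kinase Atr had lower values in knockout, and the D-type cyclin Ccnd3 and the CDK phosphatase Cdc25a had higher values, with scaled log2 fold changes of -0.38 for Atr, 0.23 for Ccnd3 and 0.21 for Cdc25a. E2f7, an E2F that represses, measured 6.68, 3.22 and 6.91 TPM in the wild-type colons and 3.34, 2.88 and 3.18 TPM in knockout, and Mybl2, the MYB protein of the MMB complex, measured 7.96, 6.30 and 6.85 TPM in the wild-type colons and 4.44, 2.88 and 6.36 TPM in knockout. In both genes a single pair of libraries overlapped as deposited, wild-type replicate 2 with knockout replicate 1 or 3, and none did after scaling. Their log2 fold changes were -0.68 (SE 0.28, limma adjusted p = 0.920) and -0.63 (SE 0.26, adjusted p = 0.9999), or -0.71 and -0.66 after scaling with adjusted p of 0.334 and 0.376.

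**Figure D5:**
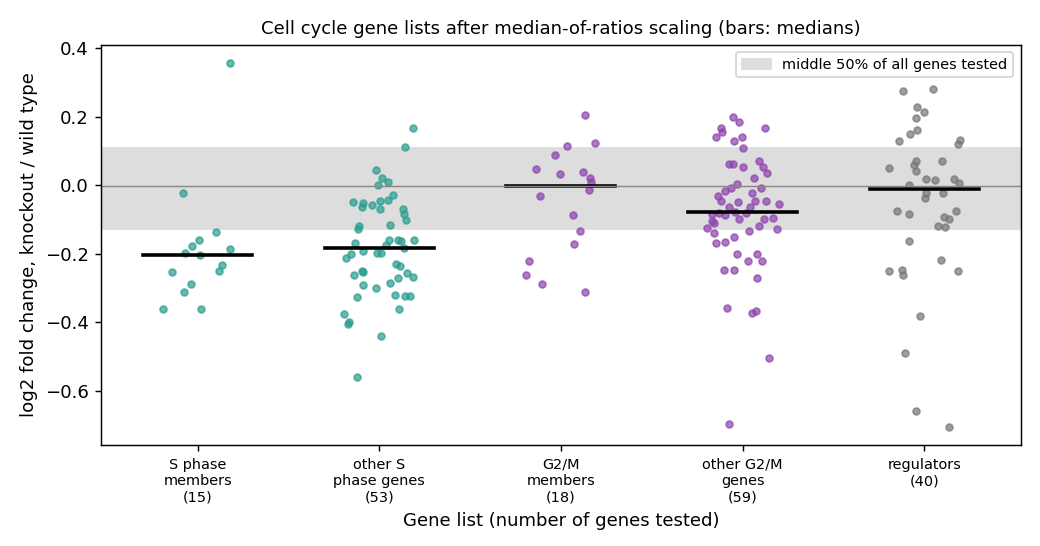
Log2 fold change after scaling of each tested gene (points) in the S phase and G2/M member lists, the other genes of each phase and the regulators, with black bars at the list medians and a grey band for the middle 50% of all genes tested. In this scaling the S phase lists centre at -0.20 and -0.18 and the G2/M lists at -0.003 and -0.08.

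Single transcripts were also compared, since a gene total can hide a shift between them. The members had 159 transcripts, of which 84 passed the filter, and 0 of them were called, where 0.0419% of all 31056 transcripts were called as deposited and 0.0451% after scaling. At an unadjusted p under 0.05 there were 2 member transcripts as deposited and 4 after scaling. The share of all transcripts at that threshold was not counted, so these counts are not read as a result about the members. The 2 with the smallest p as deposited are described as examples. ENSMUST00000028969 of Tpx2, a spindle assembly factor, measured 1.12, 0.65 and 0.96 TPM in the wild-type colons and 1.42, 2.26 and 2.13 TPM in knockout, with no overlap, a log2 fold change of 0.78 (SE 0.33) and a limma adjusted p of 0.969 (0.378 after scaling). It made up 15.6% of the gene's TPM, and the leading Tpx2 transcript, ENSMUST00000109816, measured 5.10 ± 0.43 TPM in the wild-type colons and 4.01 ± 0.45 TPM in knockout (SD, n = 3). ENSMUST00000152448 of Cdk1 measured 4.68, 1.78 and 1.55 TPM in the wild-type colons and 3.69, 5.48 and 5.14 TPM in knockout, so that wild-type replicate 1 overlapped the knockouts, with a log2 fold change of 0.85 (SE 0.36) and a limma adjusted p of 0.977. In 26 of the 40 genes 1 transcript held over 80% of the gene's TPM. The leading transcript did not always share the direction or size of the total. It averaged 3.14 and 3.22 TPM (wild type and knockout) for Bub1 and 10.4 and 10.3 TPM for Aurkb. For Cdkn1b it averaged 47.0 and 46.4 TPM, and for E2f1 1.97 and 1.89 TPM. In Aurkb the processed transcript ENSMUST00000139457 averaged 6.56 and 9.55 TPM, and in Cdkn1b the coding ENSMUST00000067327 averaged 19.1 and 13.9 TPM. For Tyms, coding ENSMUST00000026846 averaged 8.41 and 7.67 TPM, and the retained intron entry ENSMUST00000134298 averaged 13.2 and 15.1 TPM. The leading transcript was lower in knockout, like the total, for Mcm3 (14.9 and 12.5 TPM) and Mcm7 (21.9 and 19.4 TPM). That of Mcm7, ENSMUST00000000505, held 47.8% of the gene's TPM. Its log2 fold change was -0.16, against -0.33 for the total. It measured 25.6, 19.7 and 20.3 TPM in wild type and 18.3, 17.9 and 21.9 TPM in knockout, with overlap. In 10 genes, Mki67 among them, only 1 transcript was listed, so it equals the total. Splitting reads between transcripts of 1 gene is an estimate, so transcript values are less certain than the gene totals.

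Markers of the cells in the samples were read beside these genes. All 12 colon epithelium markers were above 0 in every library, with a summed level of 9867 to 13968 TPM in the wild-type colons and 12532 to 13560 TPM in knockout, and all 12 had positive fold changes (median 0.16, or 0.13 after scaling, and 0.03 with 8 positive when rescaled over transcripts with a gene). The 10 markers of differentiated colonocytes summed to 3860, 3284 and 3868 TPM in the wild-type colons and 4160, 4230 and 4056 TPM in knockout, with 10 of 10 positive as deposited and after scaling (medians 0.24 and 0.21) and 6 of 10 when rescaled over transcripts with a gene (0.11). None of the 10 was called. Smooth muscle markers summed to 6008 to 8587 TPM in the wild-type colons and 6241 to 7482 TPM in knockout, with medians of -0.08 and -0.11. The 12 crypt base and Wnt target genes, among them Lgr5 at 2.01 to 3.27 TPM, had a median of 0.09 (0.06 after scaling, -0.04 when rescaled over transcripts with a gene) with 9 positive as deposited. The 10 B cell and germinal centre genes summed to 25.3, 26.7 and 34.5 TPM in the wild-type colons and 12.4, 7.62 and 31.5 TPM in knockout, with all 8 tested ones negative and a median of -0.88, and none at 0. The 9 T and NK cell genes summed to 7.75 to 11.1 TPM in the wild-type colons and 7.15 to 12.2 TPM in knockout.

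Hair follicle genes, which do not belong to colon, summed to 89.6, 13.4 and 54.0 TPM in the wild-type colons and 12.1, 7.14 and 14.5 TPM in knockout. Of the 6 tested all were negative (median -1.72), and Krt25, Krt71 and Tchh were called lower as deposited and none after scaling. Skeletal muscle genes summed to 2795, 170 and 609 TPM in the wild-type colons and 1070, 2717 and 1451 TPM in knockout, with overlap. All 10 were positive in all 3 scalings (medians 1.33, 1.30 and 1.205), and none was called as deposited or after median-of-ratios scaling. Markers of squamous epithelium summed to 621, 149 and 481 TPM in the wild-type colons and 571, 506 and 595 TPM in knockout, with 10 of 10 positive in all 3 scalings (medians 0.57, 0.55 and 0.45) and none called. Hair follicles and lymphoid follicles hold dividing cells of their own. Wild-type replicate 1 had the highest hair follicle sum and was the highest library for 14 of 15 S phase members as deposited, but for 2 after scaling, where wild-type replicate 2, with a low hair follicle sum, was highest for 12. Without wild-type replicate 1 the S phase median was -0.07 as deposited and -0.19 after scaling. The part of these other cells in the cell cycle values was not tested.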

How the data were processed

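RNA from whole colon was measured in 3 wild-type and 3 TNFR1-/- mice. Per the labels' protocols, a PureLink kit was used for extraction and a SMARTer low input kit for libraries of polyA RNA, and the series text gives paired-end reads of 50 bases at an average of 30 M. Per the submitters' processing notes, kallisto 0.43.1, sleuth and mm10 were used. The authors deposited TPM, a length-normalised abundance that adds up alike in every library, so depth is unknown and no count test was run. Of 132639 lines, 1433 repeated a transcript with the same values and were dropped, 43008 transcripts had no value, and 1380 of the remaining 88198 had no gene.

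TPM were summed per symbol, and the 14248 genes that averaged 1 TPM or more were tested as log2(TPM + 0.5), a scale that understates changes of low genes, with limma 3.58.1 in R 4.3.3 (lmFit, eBayes with trend) and Benjamini-Hochberg adjustment over all genes. Transcripts were fitted the same way. The fit was tested on simulated data. Exact permutation of 3 against 3 cannot give p below 0.1, so single values have none. Alternatives were median-of-ratios scaling, rescaling TPM over transcripts with a gene, pseudocounts of 0.1 and 1, other filters, the replicate number as a block and leaving out each library. Samples with the same replicate number deviated together with r of 0.052, 0.132 and 0.183, so the numbers were not taken as pairs. Gene coordinates are from the GENCODE annotation of mm10, which may differ from the transcript set used upstream. Promoter letters were searched on both strands.

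The members and gene lists were chosen with earlier results of these data known. In each of 7 role groups the 2 members with the smallest p (1 in groups of fewer than 4) were given in every library, plus Mki67, Pcna and Ccnd1, and in each other list the 2 with the smallest p. Any other gene given in more than a range, and each ratio, was chosen after its values were seen. No p was adjusted over the members alone.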

Additional observations from a re-analysis of the deposited data

How the results depend on the processing

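No member was called in any of the 20 alternatives, and at an unadjusted p under 0.05 the members counted 0 to 14. The 14 came from scaling without wild-type replicate 3 alone, and 11 from rescaling over transcripts with a gene. The share of all genes at that threshold was not counted in those 2 settings, so these counts are not read as a result about the members. Over all genes 38 were called, against 24 with a pseudocount of 0.1, 2 with no filter, 142 with a filter at 5 TPM (34 members tested), 6 after median-of-ratios scaling, 4 after rescaling over transcripts with a gene, 71 with the replicate block and 19 (without wild-type replicate 2) to 307 (without wild-type replicate 1) with 1 library left out. The block called 0 members. 5 of the 6 libraries, all but knockout replicate 1, correlated best with their own number. Rescaling over transcripts with a gene moved the median of all genes to -0.097, and leaving out wild-type replicate 1 or 2 moved it to 0.11 or -0.13. The median of the members, -0.08, was 0.02 without wild-type replicate 1, 0.001 with the filter at 5 TPM and 0.005 after scaling without wild-type replicate 2, and negative otherwise. Negative G2/M members numbered 8, against 15 after rescaling, 6 to 15 with 1 library left out, and 4, 16, 13 and 15 after scaling without wild-type replicate 2, wild-type replicate 3, knockout replicate 2 and knockout replicate 3. The S phase minus G2/M difference between genotypes, -0.28, was -0.14 with means and -0.066 in the other genes. Aurkb (0.12) was -0.007 after rescaling and -0.02 to 0.25 with 1 library left out, and Ccnd1 (0.03) was -0.096 and -0.18 to 0.19. With 1 library left out and no scaling, E2f1 (-0.22) was -0.34 to -0.14, Cdkn1b (-0.12) -0.27 (without wild-type replicate 2) to -0.03 (without knockout replicate 2), Mcm7 (-0.33) -0.42 to -0.22, Mcm3 (-0.28) -0.37 to -0.13 (without wild-type replicate 1), Rrm2 (-0.22) -0.34 to -0.09 (without wild-type replicate 1), Ccnb2 (0.15) 0.07 to 0.30, Ube2c (0.23) 0.15 to 0.36, Cenpf (-0.26) -0.32 to -0.17 and Mki67 (-0.28) -0.36 to -0.18. The cause of these shifts was not tested. Alternatives that combine scaling with a left-out library, and the counts of negative members, were added after seeing the data.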
